A study of Mus musculus with 2 samples.

Results

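The barcodes described here are those that the quality limits take out of the single-nucleus RNA-seq library of the day 5 hematoma and callus after musculoskeletal traumatic injury (MTI), a tibial fracture with damage to the adjacent muscle. They were chosen by their own counts, as barcodes with 200 to 5000 detected genes over a limit. Either genes of the mitochondrial genome (mt- genes) held at least 5% of unique molecular identifiers (UMIs, counted molecules), or Rps/Rpl genes at least 2%. Most Rps/Rpl genes encode ribosomal proteins, but 16 of the 101 symbols are Rps6k kinases, Rps19bp1 or pseudogenes. These 16 held 4492 of the 19019 Rps/Rpl UMIs within the gene limits. By this rule 271 of the 1446 barcodes in the library were removed and 1127 were retained, so the limits took 19.4% of the 1398 barcodes within the gene limits (exact 95% interval 17.3 to 21.6%). The other 48 barcodes lay outside the gene limits, 27 with fewer than 200 genes and 21 with more than 5000. Of the removed barcodes, 258 were over the mitochondrial limit only, 10 over the ribosomal limit only and 3 over both.

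The nuclei came from the periosteum, hematoma and callus of injured tibias of 3 or 4 C57BL6 mice, pooled into 1 library, and were sorted for the DNA dye Sytox AADvanced before capture. The series holds a second library, from day 1 after fracture, which was not compared here, and 33 barcode sequences occurred in both libraries, 4 of them in removed and 29 in retained barcodes. With 1 library there was no replicate, so no test was made. Every interval given covers counting error only, and nuclei of the same library are not replicates.

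Mitochondrial transcripts are made and kept inside mitochondria, and messages of ribosomal proteins are among the most abundant in the cytoplasm. Nuclei carry neither in large amounts, so their share is used as a measure of how much cytoplasmic RNA came along with a nucleus. Long noncoding RNAs such as Malat1 and Neat1 stay in the nucleus. In the healing callus, nuclei of myeloid cells, injury-induced fibrogenic cells (IIFCs), chondrocytes, osteoclasts, endothelial cells and muscle are found side by side.

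The removed barcodes were not only shallow ones. They held 504 to 21302 UMIs with a median of 1937, against 500 to 22993 with a median of 2364 in retained barcodes. The median number of detected genes was 827 in removed and 1305 in retained barcodes. The removed barcodes held 81.4% of the mitochondrial UMIs of both groups together, which is what the rule selected. They also held 26.2% of the Rps/Rpl UMIs. Most of this was not selected by the ribosomal limit, since barcodes over the mitochondrial limit only held 21.8%. Those over the ribosomal limit only held 2.44% and those over both 1.96%. Of the UMIs outside mt- and Rps/Rpl genes, which are the base of every level given from here on, the removed barcodes held 15.5%.

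**Figure D1:**
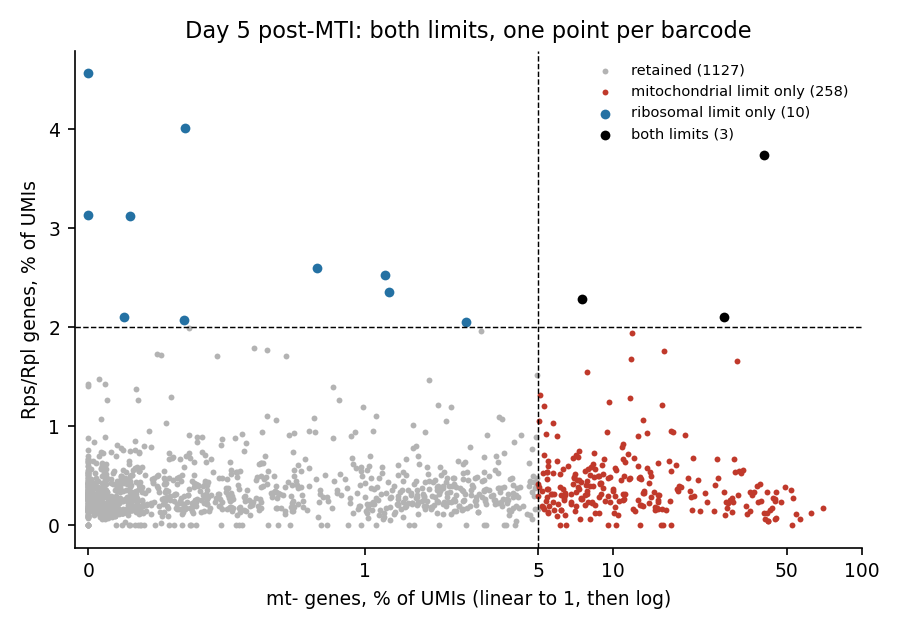
Each point is 1 barcode of the day 5 library, with the share of its UMIs from mt- genes on the horizontal axis (linear to 1%, logarithmic above) and from Rps and Rpl genes on the vertical axis. Dashed lines are the 5% and 2% limits, and the barcodes run across the mitochondrial limit without a gap.

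The mitochondrial limit fell within a continuous range of values. Just inside it were barcodes at 4.93%, 4.96% and 4.98%, and just outside at 5.00%, 5.01% and 5.01%. Between 4 and 5% there were 31 barcodes and between 5 and 6% there were 36. Among those over the mitochondrial limit only, the share ranged from 5.00 to 70.0% with a median of 10.9%. At the ribosomal limit the nearest values were 1.96% and 2.00% inside and 2.06% and 2.08% outside.

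The most abundant transcript that the rule did not use was Gm42418, a noncoding RNA gene that lies inside an annotated ribosomal RNA (rRNA) gene. In GRCm38 (the build named mm10 in the labels), Gm42418 is on chromosome 17 from 39846958 to 39848788 on the plus strand, and the rRNA gene runs from 39846353 to 39848827 on the minus strand. AY036118 lies within Gm42418 on the other strand, from 39847113 to 39848035, and Gm26917 just upstream, from 39843013 to 39846341 on the plus strand, where it does not overlap the rRNA gene. The 120 bases around the start of the overlap are shown because reads from this place count for either gene depending on strand. The sequence is from the GENCODE transcript of Gm42418, at chr17:39847053-39847172, plus strand, and capitals mark the part that also lies in AY036118.
Gm42418: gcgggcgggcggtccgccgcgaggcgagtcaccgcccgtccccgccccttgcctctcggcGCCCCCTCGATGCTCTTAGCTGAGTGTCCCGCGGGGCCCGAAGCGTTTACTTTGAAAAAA

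Gm42418 was higher in the removed barcodes. It took 0.995 to 62.5% of a removed barcode's UMIs outside the rule's genes, with a median of 12.5%, against 0.221 to 42.5% with a median of 3.55% in retained barcodes. The ranges overlapped, and 250 of the 271 removed barcodes were over the retained median. Over all UMIs its level was 3.16-fold that of retained barcodes (95% interval 3.14 to 3.19), and removed barcodes held 36.8% of its UMIs. AY036118 was 3.04-fold (2.92 to 3.16) and Gm26917 1.44-fold (1.38 to 1.5) the retained level. Together the 3 genes made up 11.3% of the removed and 3.69% of the retained UMIs.

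Several protein-coding genes elsewhere in the genome had levels that followed Gm42418 across the 1398 barcodes. Of 329 genes with at least 2000 UMIs, 5 outside that locus had a Spearman rho of at least 0.6 with it: Cmss1 (0.874), Lars2 (0.835), Gphn (0.759), Cdk8 (0.694) and Camk1d (0.628). This is a description over barcodes that share 1 library and differ in depth, and the genes were chosen after their values were seen. Lars2, which encodes the mitochondrial leucyl-tRNA synthetase, was 3.63-fold (3.52 to 3.74) the retained level. Cmss1 was 4.08-fold (4.00 to 4.15), so that 42.8% of its UMIs were in removed barcodes. Counted together with the 3 genes of the rRNA locus, these genes took 16.0% of the removed and 5.04% of the retained UMIs.

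Nuclear-retained RNAs moved the other way. The list of Malat1, Neat1, Meg3, Kcnq1ot1 and a further long noncoding RNA was at 0.544 times the retained level (0.537 to 0.552). Malat1 held 199669 of the list's 218626 UMIs in retained barcodes, so the list ratio is mostly that of Malat1. Of the 5 genes, 1 was at least 2-fold lower, against 6.27% of all genes tested. The median ratio of the 5 was 0.715, and Kcnq1ot1 was at 0.835 times (0.739 to 0.942). Malat1 took 0 to 9.03% of a removed barcode's UMIs, with a median of 1.81%, against 0 to 19.6% with a median of 3.32% in retained barcodes, and its pooled level was 0.527 times the retained one (0.520 to 0.535). Neat1 was at 0.715 times (0.678 to 0.753), while Meg3 was at 0.940 times with an interval that included 1 (0.855 to 1.03). With each barcode thinned to 500 UMIs, Malat1 was found in 90.4% of removed and 96.4% of retained barcodes, and Lars2 in 92.3% and 65.3%. Unthinned, the shares were 95.6% and 98.0% for Malat1 and 99.3% and 95.2% for Lars2.

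Across all genes, 13249 had at least 20 UMIs in both groups together. Of these, 580 were at least 2-fold higher in removed barcodes with an interval that left out 1, which is 4.38% of the genes tested, and 831 were at least 2-fold lower, 6.27%. The median ratio over all genes tested was 0.923. With all UMIs as the base, mitochondrial and ribosomal ones included, every ratio shifted by -0.22 on the log2 scale, and 356 genes were higher and 1312 lower. With each barcode thinned to 500 UMIs the counts were 108 and 356. For the barcodes over the mitochondrial limit only the shares were 4.22% higher and 6.23% lower, of 13227 genes.

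Of the 10 genes named for the largest ratios in removed barcodes, several belong to cartilage or matrix, and others do not. Ucma, a secreted protein of cartilage, was 17.7-fold (9.07 to 37.1), but 28 of its 39 UMIs in removed barcodes were in 1 barcode. Fmod (fibromodulin, which binds collagen fibrils) was 8.33-fold (5.23 to 13.4) and was found in 15 removed barcodes. Col2a1, the main collagen of cartilage, was 7.32-fold (6.63 to 8.08), with 950 UMIs in 23 removed barcodes and 706 UMIs in 54 retained barcodes. Of the 950, 917 lay in 6 removed barcodes. Comp, a cartilage matrix protein, was 7.11-fold (5.92 to 8.55), with 115 of its 276 UMIs in removed barcodes in 1 barcode. Timp1, an inhibitor of matrix proteases, was 7.74-fold (5.82 to 10.3) and was spread over 37 removed barcodes. Cst3 (cystatin C, a secreted protease inhibitor) was 6.08-fold (4.49 to 8.24) in 44 removed barcodes. Acp5, the tartrate-resistant acid phosphatase of osteoclasts, was 7.60-fold (5.90 to 9.83), with 92 of 151 UMIs in 1 barcode. The other genes of the leading 10 were Il1rl1, Il33 and Ifitm2, at 9.39-fold, 6.58-fold and 5.87-fold, with 23 of the 38 UMIs of Il1rl1 and 55 of the 69 of Il33 in 1 barcode each.

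The 10 genes named as lowest in removed barcodes had 0 UMIs there, and several are genes of mature muscle fibres. Myh4, the fast myosin heavy chain of type IIb fibres, had 972 UMIs in 69 retained barcodes and 0 in removed barcodes, at least 59.5-fold lower against a floor of 3 UMIs over the group. Ppp1r3a, a glycogen-targeting subunit of a phosphatase in muscle, was at least 18.4-fold lower, Trim63 (a muscle ubiquitin ligase) at least 15.5-fold and Lmod2 at least 8.64-fold. Pdk4, Pvalb (parvalbumin, the calcium buffer of fast fibres), 2310020H05Rik, Sele, Ip6k3 and Npnt were also at 0, with bounds from 4.53-fold to 6.74-fold lower. Sele, E-selectin of activated endothelium, is not a muscle gene, and its 77 UMIs came from 9 retained barcodes.

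**Figure D2:**
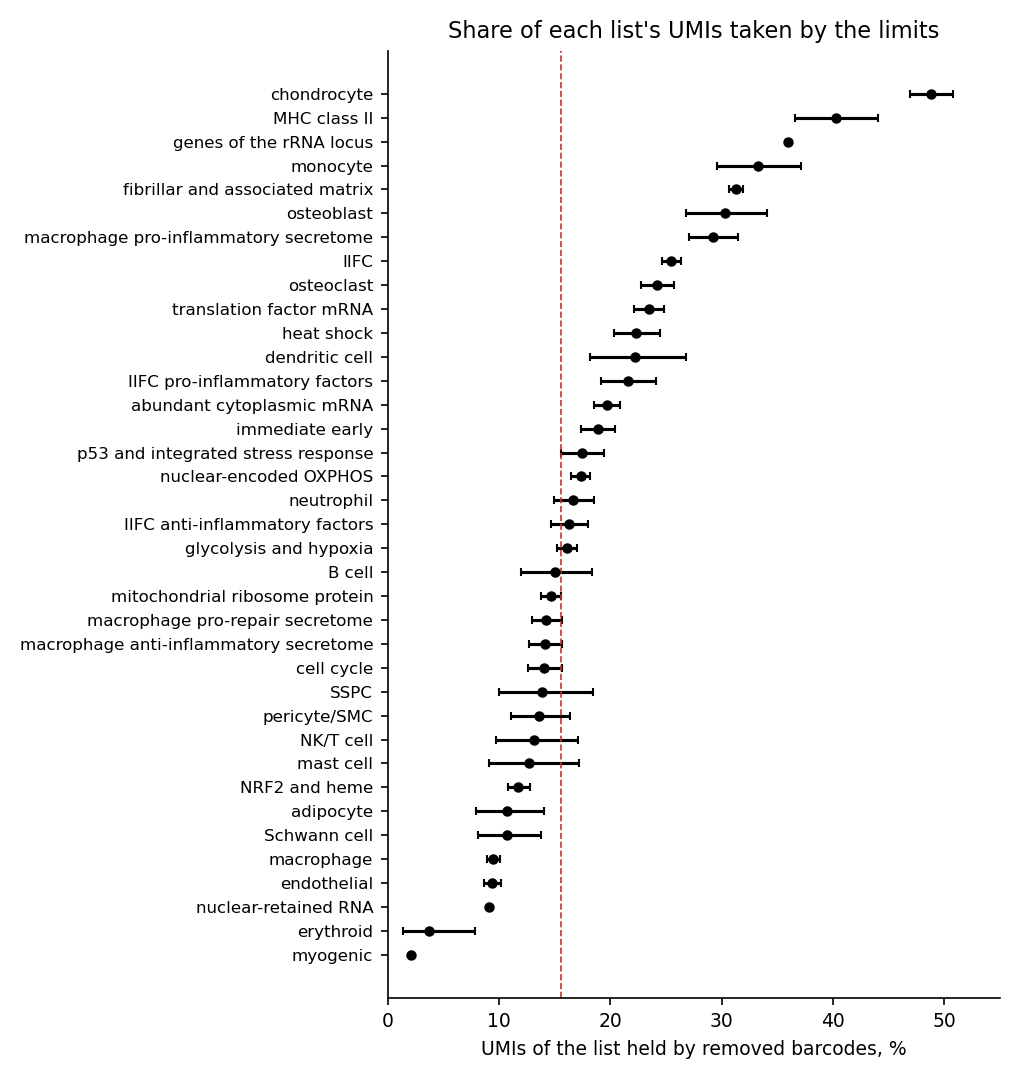
For each gene list with at least 100 UMIs, the horizontal axis gives the share of its UMIs that were in removed barcodes, with exact binomial 95% intervals. The dashed line is the 15.5% of all UMIs outside the rule's genes; chondrocyte UMIs stand at 48.8% and myogenic UMIs at 2.11%.

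By cell type markers, the limits took chondrocyte transcripts most and muscle transcripts least. Of the UMIs of the 4 chondrocyte markers, 48.8% were in removed barcodes, and their level was 5.19-fold the retained one (4.81 to 5.61). Acan (aggrecan) was 3.30-fold and Sox9, the transcription factor of cartilage, 2.00-fold, while Fgfr3 was 1.67-fold with an interval that included 1 (0.960 to 2.80). These UMIs came from 42 removed barcodes, and 26.1% of them from 1. Without that barcode the list was 3.90-fold, and without the deepest 5% of removed and of retained barcodes 2.62-fold. Most of the list's 1290 UMIs in removed barcodes lay in the 6 removed barcodes of the chondrocyte-like cluster. Those 6 held 917 of the 950 Col2a1 UMIs and 227 of the 271 Acan UMIs. Among those 6 was 1 barcode over the ribosomal limit only, which held 205 of the list's UMIs. In retained barcodes of cell types that should lack Col2a1, it had 1 UMI in 97 myogenic-like barcodes (1.44 per 1000000) and 5 UMIs in the 125 of the larger macrophage-like cluster (8.98 per 1000000).

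Transcripts of MHC class II, which presents antigen to helper T cells, were 3.67-fold the retained level (3.14 to 4.28). All 4 genes of the list were at least 2-fold higher, against 4.38% of all genes tested. H2-Aa was 4.04-fold, H2-Ab1 4.01-fold, Cd74 (the invariant chain) 3.67-fold and H2-Eb1 3.15-fold. Their 278 UMIs lay in 35 removed barcodes. Monocyte markers were 2.71-fold (2.28 to 3.22), with Ccr2, the receptor that brings monocytes into tissue, at 3.14-fold (2.58 to 3.81) in 45 removed barcodes. Ccr2 held 168 of the list's 205 UMIs in removed and 291 of 411 in retained barcodes, so the list ratio is mostly that of Ccr2. Of the 168, 50 lay in the cluster called dendritic cell-like below. Cd52 was 2.57-fold and Chil3 2.49-fold. Plac8 was at 0.890 times (0.387 to 1.82), and Ly6c2 had 0 UMIs in removed and 5 in retained barcodes. With the mitochondrial limit at 10%, the monocyte list was at 1.08-fold. The dendritic cell list was 1.56-fold (1.21 to 1.99), with Flt3 at 2.38-fold. Traf1 and Zbtb46 had intervals that included 1, and Siglech had 0 UMIs in removed and 30 in retained barcodes.

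Macrophage markers were lower as a list, at 0.569 times the retained level (0.530 to 0.611), but not gene by gene. Of the 10 genes, Adgre1 (F4/80) at 0.451 times, Mertk at 0.453 times, Ms4a7 at 0.355 times and C1qb at 0.354 times were at least 2-fold lower. Over all genes tested the share was 6.27%. Cd68, a lysosomal protein of macrophages, was at 2.81-fold (1.92 to 4.06), but 18 of its 46 UMIs in removed barcodes were in 1 barcode. Csf1r was at 0.922 times with an interval that included 1 (0.737 to 1.14). Secreted factors also differed among themselves. Of the 5 genes of the pro-inflammatory secretome list, Thbs1, Ccl2 and Ccl9 were 2.35-fold, 2.89-fold and 3.12-fold the retained level, while Cxcl2 and Ccl7 had intervals that included 1. The pro-repair list was at 0.904 times (0.810 to 1.01), with Pltp at 0.374 times.

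Fibrogenic and matrix transcripts were higher. The 5 IIFC markers were 1.86-fold (1.78 to 1.94), with Col3a1 at 2.08-fold, Aspn at 2.04-fold and Postn (periostin) at 1.73-fold. Against 4.38% of all genes tested, 5 of the 10 genes of fibrillar and associated matrix were at least 2-fold higher, and none lower. Among them were Lum at 4.96-fold, Tnc (tenascin C) at 4.42-fold, Col1a1 at 3.76-fold and Sparc at 3.11-fold. Col1a1 was found in 28.4% of removed and 16.5% of retained barcodes thinned to 500 UMIs, and in 45.0% and 33.7% unthinned. The osteoclast list was 1.74-fold (1.60 to 1.88) with Ctsk, the collagen-degrading protease cathepsin K, at 3.59-fold, and 40.5% of its UMIs in removed barcodes came from 1 barcode, without which the list was 1.05-fold.

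Of the 12 myogenic markers, 8 were at least 2-fold lower, against 6.27% of all genes tested, and none higher. The list was at 0.118 times the retained level (0.110 to 0.126). With every barcode given equal weight it was at 0.212 times. Ttn (titin) was at 0.119 times and Neb (nebulin) at 0.0934 times. The markers of muscle progenitors differed less, with Pax7 at 0.782 times (0.487 to 1.20) and Myog at 1.26 times (0.610 to 2.38). Endothelial markers were at 0.561 times (0.512 to 0.613), with Cdh13 at 0.492 times. Cdh13 made up 3791 of the 5238 endothelial UMIs in retained barcodes and was found in 253 of those barcodes. Cdh5 was at 0.386 times, Flt1 at 0.609 times and Pecam1 at 0.691 times. Eng (1.35-fold), Emcn, Kdr and Tek had intervals that included 1. Erythroid markers were at 0.208 times (0.0751 to 0.463) on 6 UMIs. Neutrophil, B cell, NK/T cell, mast cell, SSPC (skeletal stem/progenitor cell) and pericyte lists had intervals that included 1. The neutrophil genes differed among themselves. Mmp9 was 4.05-fold, with 93 of its 131 UMIs in removed barcodes in 1 barcode. These 93 were 32.9% of the neutrophil list's 283 UMIs in removed barcodes. Over the alternatives run, the ratio of that list lay between 0.536 and 1.54. S100a8 was at 0.435 times (0.183 to 0.891), S100a9 at 0.585 times (0.387 to 0.854) and Csf3r at 0.738 times (0.598 to 0.905).

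Cytoplasmic messages outside the ribosomal proteins were higher by smaller ratios. Translation factor messages were 1.67-fold (1.55 to 1.80), with Eef1b2 at 2.63-fold, Fau at 2.49-fold and Tpt1 at 2.40-fold and none of the 13 at least 2-fold lower. Other abundant cytoplasmic messages were 1.33-fold (1.24 to 1.43). Nuclear genes of oxidative phosphorylation, whose products work in mitochondria, were 1.14-fold (1.07 to 1.21) but at 0.979 times with all UMIs as the base, and messages of mitochondrial ribosomal proteins were at 0.935 times with an interval that included 1 (0.868 to 1.01). Heat shock genes were 1.56-fold (1.38 to 1.76), and the NRF2 and heme list was at 0.723 times (0.656 to 0.797), with Hmox1 (heme oxygenase 1) at 0.437 times.

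**Figure D3:**
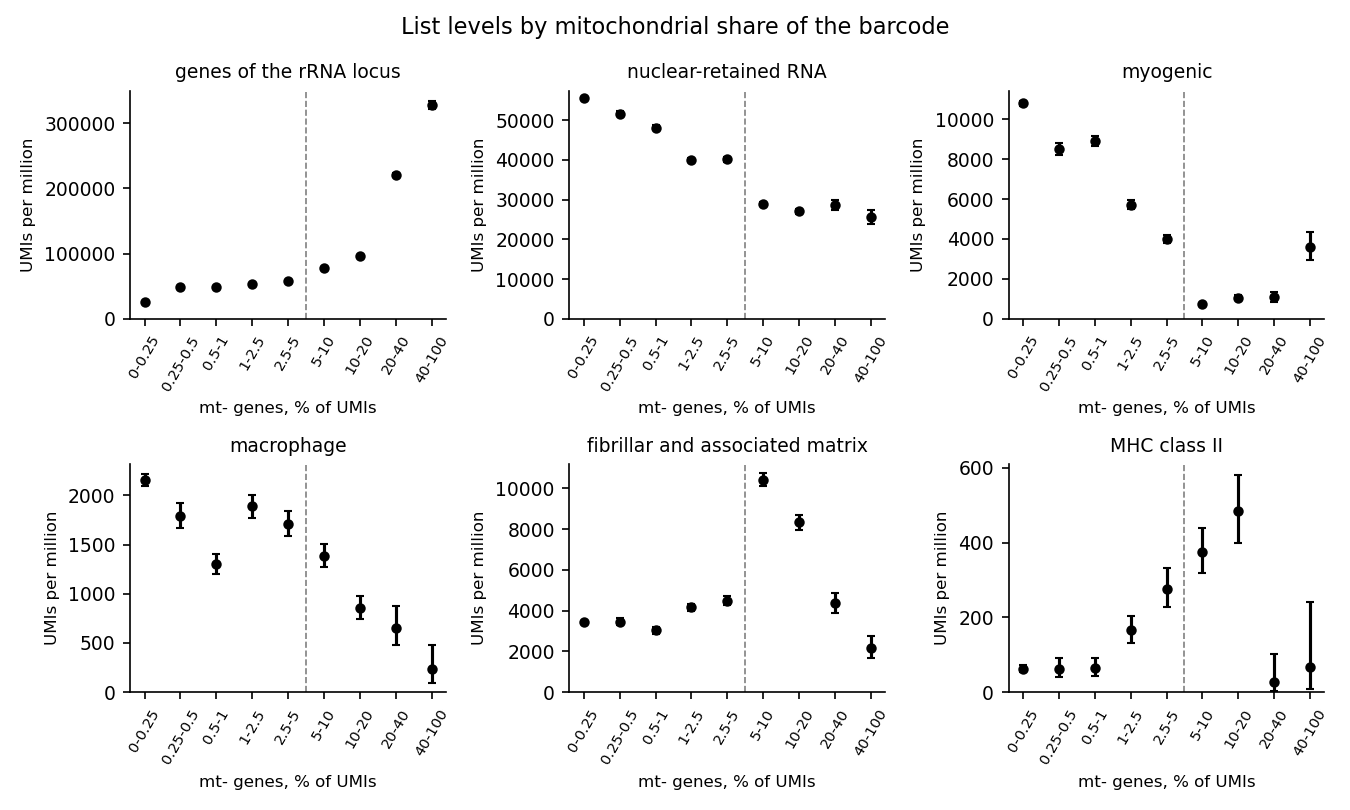
Levels of 6 lists, in UMIs per 1000000 outside mt- and Rps/Rpl genes, by the mitochondrial share of the barcode, with Poisson 95% intervals; the dashed line is the 5% limit and the groups hold 544, 143, 167, 167, 106, 119, 77, 39 and 23 barcodes, none of them over the ribosomal limit. The genes of the rRNA locus go from 25503 in the lowest to 328303 in the highest group.

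Along the mitochondrial share, with the 13 barcodes over the ribosomal limit left out, the lists did not all change at the limit. The genes of the rRNA locus took 2.55% of UMIs in barcodes under 0.25% mitochondrial, 5.73% at 2.5 to 5%, 7.84% at 5 to 10%, and 32.8% in the 23 barcodes at 40% or more. Nuclear-retained RNAs went from 5.56% in the lowest group to 4.02% at 2.5 to 5% and 2.89% at 5 to 10%, and lay between 2.56% and 2.89% in the groups over the limit. Myogenic UMIs were lower below the limit already, at 10798 per 1000000 in the lowest group and 3990 at 2.5 to 5%, at 724 at 5 to 10%, at 1048 at 10 to 20% and at 1068 at 20 to 40%. In the 23 barcodes at 40% or more they were at 3580. MHC class II was at 63.0 per 1000000 in the lowest group, 276 at 2.5 to 5% and 484 at 10 to 20%, and at 28.5 at 20 to 40% on few UMIs. Matrix UMIs were highest just over the limit, at 10421 per 1000000 at 5 to 10% against 4490 at 2.5 to 5%, and were at 2175 at 40% or more.

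When removed and retained barcodes were clustered together, 17 clusters formed, and the removed share differed between them. Names with "-like" were given from the marker lists, and clusters without a clear name are called by their leading genes. Of the 156 barcodes of the 2 macrophage-like clusters, 5 were removed, 3.21% (1.05 to 7.32%), and with a marker score per barcode 13 of 199, 6.53%. Macrophage markers also lay outside these clusters, as given below for an unnamed one, so these shares do not cover all macrophages. Of 99 myogenic-like barcodes 2 were removed, 2.02% (0.246 to 7.11%). The chondrocyte-like cluster lost 6 of 16, 37.5% (15.2 to 64.6%), and the dendritic cell-like cluster 16 of 43, 37.2% (23.0 to 53.3%). The latter was led by Klri1, Ffar2 and Gpr171, followed by H2-Eb1, H2-Aa and Ciita. The name of this last cluster rests on a condition set after the clusters were seen, and with a marker score per barcode in place of clusters the dendritic cell-like class lost 6 of 34, 17.6%. The IIFC-like cluster lost 42 of 197, 21.3% (15.8 to 27.7%), the osteoclast-like 12 of 47, 25.5% (13.9 to 40.3%), and the endothelial-like 10 of 49, 20.4% (10.2 to 34.3%). The neutrophil-like cluster lost 8 of 98, 8.16% (3.59 to 15.5%); without regression of mitochondrial and ribosomal content, the neutrophil-like class held 304 barcodes and lost 30.3%.

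**Figure D4:**
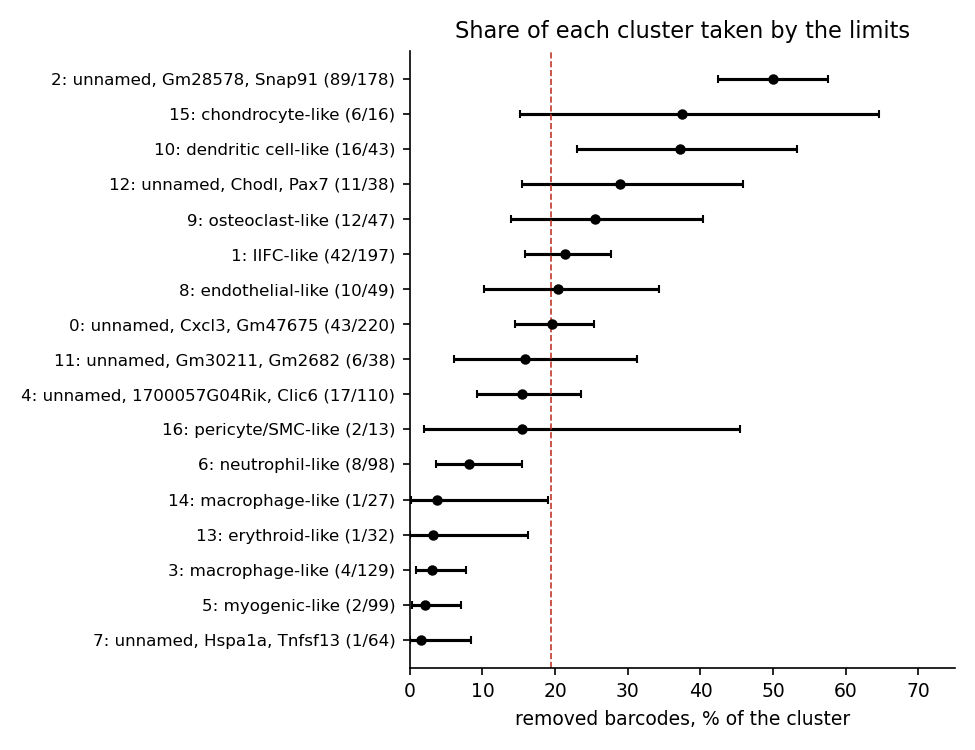
Share of each cluster's barcodes that the limits removed, with exact binomial 95% intervals and the counts beside each name; the dashed line is 19.4%, the share over all barcodes. Cluster 2, which has no name, lost 89 of 178 barcodes, and the myogenic-like cluster 2 of 99.

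About a cluster of shallow barcodes no cell type can be stated. Cluster 2 held 178 barcodes with a median of 757.5 UMIs and no marker list that named it, and 89 of them were removed, 32.8% of all removed barcodes. The unnamed clusters together held 648 barcodes, 167 of them removed. An unnamed cluster with Cxcl3, Ccl24 and Arg1, genes of activated myeloid cells, among its leading genes lost 43 of 220 barcodes, 19.5%. An unnamed cluster led by Chodl and Pax7, a marker of muscle stem cells, lost 11 of 38, 28.9%.

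Within clusters the removed barcodes still had more Gm42418. In the 11 clusters with at least 5 removed and 5 retained barcodes, its level was higher in removed barcodes in all 11, from 1.36-fold to 4.66-fold with a median of 2.11-fold. The 4.66-fold was in the chondrocyte-like cluster, where 1 barcode over the ribosomal limit held 4010 of the 7645 Gm42418 UMIs of the removed barcodes. Malat1 was lower in 8 of the 11, from 0.561 to 1.52 times with a median of 0.943 times. The interval of its ratio left out 1 in 5 of those 8 clusters and in 2 of the other 3, where Malat1 was higher: an unnamed one (cluster 4) at 1.52-fold (1.33 to 1.74) and the endothelial-like one at 1.14-fold (1.04 to 1.25). In the IIFC-like cluster Gm42418 took 9.75% of removed and 4.09% of retained UMIs, and Malat1 2.25% and 3.27%. In the neutrophil-like cluster Malat1 took 2.75% and 2.65%, and in the chondrocyte-like cluster 1.43% and 1.5%, with intervals of the ratio that included 1.

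**Figure D5:**
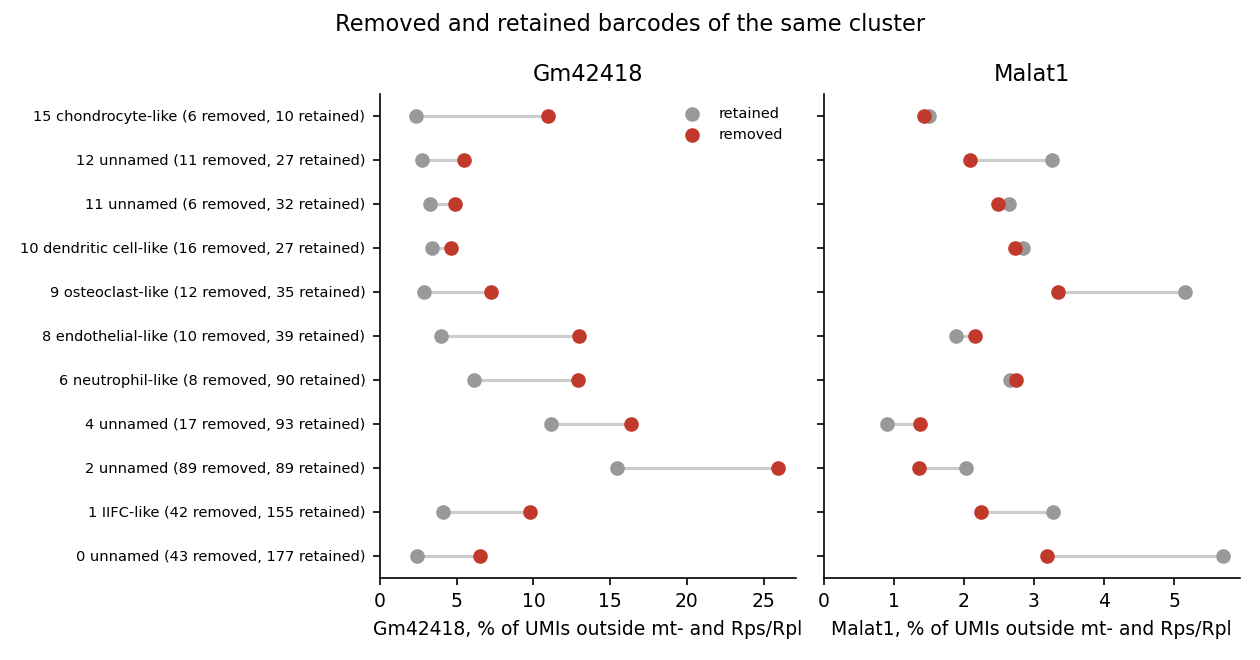
Gm42418 (left) and Malat1 (right) as a share of UMIs outside mt- and Rps/Rpl genes, for removed and retained barcodes of the same cluster. Gm42418 is higher in the removed barcodes of all 11 clusters and Malat1 lower in 8.

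Some genes also differed within a cluster. Between the 42 removed and 155 retained IIFC-like barcodes, Timp1 was 5.70-fold (4.08 to 8.01) and Col1a1 2.56-fold (2.40 to 2.74), while Postn was 1.16-fold (1.06 to 1.28) and Csf1 1.00-fold (0.513 to 1.82). Between 6 and 10 chondrocyte-like barcodes, Col2a1 was 1.99-fold (1.80 to 2.20) and Acan at 0.842 times (0.711 to 0.995). Of the 917 Col2a1 UMIs in the 6 removed ones, 287 were in 1 barcode and 142 in the barcode over the ribosomal limit. Between 12 and 35 osteoclast-like barcodes, Ctsk was 2.86-fold (2.44 to 3.34), but 147 of its 281 UMIs in the 12 removed ones were in 1 barcode. In the cluster led by Cxcl3 and Arg1, Ccl2 was 5.04-fold (3.40 to 7.50), while Adgre1 was at 0.882 times (0.668 to 1.15) and Arg1 at 0.903 times (0.785 to 1.03).

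The 10 barcodes over the ribosomal limit only had 543 to 8515 UMIs, with a median of 881, and 2.06 to 4.57% Rps/Rpl UMIs. Against retained barcodes, 321 of 12658 genes were at least 2-fold higher, 2.54%, and 329 at least 2-fold lower, 2.6%. The leading genes were Fau, part of the small ribosomal subunit, at 13.0-fold (5.13 to 27.6) on 7 UMIs, Gm42418 at 10.1-fold (9.88 to 10.4), and Eef1a1, a translation elongation factor, at 8.66-fold (5.18 to 13.7). Rack1, S100a6, Col1a1, Gm19951, Il31ra, AY036118 and Actb followed, from 7.86-fold to 6.02-fold. Gm42418 took 8.84 to 47.1% of all UMIs of these barcodes. Translation factor messages were 5.06-fold (3.86 to 6.51), and cell cycle genes 5.90-fold (4.24 to 8.01) on 42 UMIs in 5 barcodes. The genes at 0 here, such as Trdn, Tbc1d5 and Gpc6, had bounds of only 4.28-fold, 4.05-fold and 3.92-fold lower, since the 10 barcodes held 17629 UMIs.

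A single barcode over the ribosomal limit set several of these values. It had 8515 UMIs and 1859 genes, and 47.1% of its UMIs were Gm42418. It was 1 of the 6 removed barcodes of the chondrocyte-like cluster. It held 142 UMIs of Col2a1, 115 of Comp, 110 of Ibsp (bone sialoprotein) and 61 of Acan, and also 64 of Ttn, so markers of cartilage, bone and muscle occurred under 1 barcode. All 205 chondrocyte and 120 osteoblast UMIs of the barcodes over the ribosomal limit only were in it. Of the leading genes of that group, it held 4010 of the 5903 UMIs of Gm42418, 44 of the 79 of Col1a1 and 8 of the 19 of Eef1a1. Over all removed barcodes the osteoblast list was 2.37-fold (1.99 to 2.81), and without this barcode 0.905 times.

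Of the 3 barcodes over both limits, the deepest had 10908 UMIs, 28.0% of them mitochondrial, and held 79 osteoclast UMIs, 46 of them Ctsk and 17 Acp5, with 36 cell cycle UMIs. Another, of 5459 UMIs, held 6 osteoclast UMIs, and the third, of 508 UMIs, none. The osteoclast list was thus 11.5-fold (9.12 to 14.2) in these 3 barcodes.

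Removed and retained barcodes also differed in the length of the genes they covered. Genes under 10 kb took 19.1% of removed and 13.0% of retained UMIs, and genes over 100 kb 37.5% and 41.6%. With the 3 genes of the rRNA locus and the 5 that followed Gm42418 left out together, genes under 10 kb took 9.36% and 9.84%, and genes over 100 kb 40.3% and 42.7%.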

How the data were processed

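Single-nucleus libraries were made with 10x Genomics 3′ chemistry. The deposited UMI counts per gene and barcode were produced by the authors with Cell Ranger 7.0.1 (per the file headers) on mm10 (per the labels), with intronic and exonic reads; the protocol text names a human reference, but the gene identifiers are mouse. The library held 5899407 UMIs in 1446 barcodes, 500 to 45740 each, so no empty droplets were at hand to measure free RNA. The study's stated limits were applied to the counts as deposited. The study also took out myogenic cells, a step that was not applied here. The retained barcodes, against which every ratio is set, therefore include 97 of the myogenic-like cluster. These 97 held 694185 of the 4292832 retained UMIs outside mt- and Rps/Rpl genes. Levels are UMIs per 1000000 UMIs outside mt- and Rps/Rpl genes; ratios have exact conditional binomial 95% intervals, shares Clopper-Pearson intervals and sums Poisson intervals, which cover counting error only. PCR duplicates are collapsed by UMI. Genes needed 20 UMIs in both groups together; the 10 genes named in each direction needed 50 UMIs, in at least 5 barcodes of the higher group. Clusters came from Seurat 5.3.0 (2000 variable genes, 30 principal components, resolution 1, mitochondrial and ribosomal content regressed out, R 4.3.3). A name needed at least 3 markers, each with at least 3 UMIs and 1.5-fold, no fewer than any other class, and 1 among the 100 leading genes; the comparison of classes was set after the clusters were seen. Scrublet (scanpy 1.11.5) marked 0 of 1398 barcodes, so doublets were not removed and may remain. Gene positions and lengths are from GENCODE annotation of GRCm38, matched by identifier for 32158 of 32285 genes. The interval and the rule for 2-fold genes were tested on simulated data. Members and lists were chosen with earlier results of these data known. The day 1 library served only to count shared barcodes.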

Additional observations from a re-analysis of the deposited data

How the results depend on the processing

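The direction of the ratios of removed to retained levels held under every alternative run for the chondrocyte, MHC class II, monocyte, IIFC, macrophage, myogenic, rRNA locus and nuclear-retained lists, while most values left their counting intervals; the cause was not tested unless the alternative itself gives it. Over those alternatives the chondrocyte ratio lay between 2.62 and 5.87, MHC class II between 2.70 and 5.67, macrophage between 0.416 and 0.666 and myogenic between 0.0975 and 0.214. At a mitochondrial limit of 2.5%, 377 barcodes were removed and the ratios were 0.666 (macrophage), 1.74 (IIFC), 3.26 (chondrocyte), 0.214 (myogenic), 0.614 (nuclear-retained) and 2.70 (rRNA locus). At 10%, 152 were removed, with 0.416 (macrophage), 1.08 (monocyte), 1.30 (IIFC), 3.77 (chondrocyte), 0.175 (myogenic), 3.74 (rRNA locus) and 2.70 (MHC class II), and the dendritic cell (0.974) and immediate early (0.869) lists turned to below 1. A ribosomal limit of 1% removed 304 barcodes, with 1.78 (IIFC), 4.73 (chondrocyte), 0.520 (nuclear-retained) and 3.13 (rRNA locus). A ribosomal limit of 4% gave 3.88 (chondrocyte), 0.105 (myogenic) and 2.83 (rRNA locus), and turned the osteoblast list to 0.722. Without an upper gene limit the values were 1.5 (IIFC), 4.76 (chondrocyte), 0.577 (nuclear-retained) and 2.85 (rRNA locus). With at least 500 genes, 187 barcodes were removed, with 1.94 (IIFC), 0.0975 (myogenic), 0.563 (nuclear-retained) and 2.88 (rRNA locus). With all UMIs as the denominator, the values were 0.490 (macrophage), 1.60 (IIFC), 4.47 (chondrocyte), 0.101 (myogenic), 0.468 (nuclear-retained) and 2.62 (rRNA locus), 0.979 for oxidative phosphorylation and 0.988 for the p53 and integrated stress response list, both turned to below 1, with 356 genes higher and 1312 lower. Equal weight per barcode gave 0.523 (macrophage), 2.00 (monocyte), 1.32 (IIFC), 3.04 (chondrocyte), 0.212 (myogenic), 0.560 (nuclear-retained) and 2.53 (rRNA locus). Thinning to 500 UMIs gave 0.514 (macrophage), 1.35 (IIFC), 3.48 (chondrocyte), 0.183 (myogenic), 0.572 (nuclear-retained) and 2.38 (rRNA locus), turned immediate early genes to 0.808, and left 108 genes higher and 356 lower, on fewer UMIs. Against retained barcodes under 1% of either kind, the values were 4.73 (chondrocyte), 0.103 (myogenic), 0.508 (nuclear-retained), 3.67 (rRNA locus) and 5.67 (MHC class II). Without the deepest 5% they were 2.62 (chondrocyte), 0.181 (myogenic) and 0.584 (nuclear-retained). Genes at least 2-fold higher numbered 889 with no minimum of UMIs and 361 with a minimum of 50. Among alternatives chosen after seeing the data, a denominator without the genes of the rRNA locus and those that followed gave 0.644 (macrophage), 2.10 (IIFC), 5.87 (chondrocyte), 0.133 (myogenic) and 0.616 (nuclear-retained). Without the removed barcode with the most UMIs of each list, the values were 1.68 (IIFC), 3.90 (chondrocyte), 0.104 (myogenic), 0.529 (nuclear-retained) and 2.94 (rRNA locus), and 0.905 for osteoblasts. Without barcodes shared with day 1, the myogenic ratio was 0.109. Removed shares of classes were 0% (myogenic-like) and 30.3% (neutrophil-like) without regression, 16.2% (erythroid-like) and 8.82% (myogenic-like) at resolution 0.5, 0% (myogenic-like) with mt- and Rps/Rpl genes kept, and 17.6% (dendritic cell-like) and 0% (erythroid-like) with a marker score per barcode. No osteoclast-like class was named without regression or at resolution 0.5. The removed minus retained share of UMIs was 6.39 percentage points in short and -5.17 in long genes with limits of 20 and 50 kb, 8.48 in short genes as a mean over barcodes, and -0.476 (reversed) and -2.37 without the genes of the rRNA locus and those that followed. The run without doublets gives no other value, since none were marked. No paired analysis was possible because there is 1 library.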
